A study of Mus musculus with 12 samples.

Results

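Transcripts of 10 enzymes that make or use fumarate, or that act directly beside such a step, were measured in the ventricular wall of mice that lack the complex II assembly factor Sdhaf4 in muscle. They were Fah and Gstz1 of tyrosine breakdown, Fh1 (fumarase), Adsl, Adss, Adssl1, Ampd2 and Ampd3 of the purine nucleotide cycle, and Asl and Ass1 of the argininosuccinate steps. They were chosen by gene name, with earlier results of these data known. Each name matched 1 row among the 43686 rows of the deposited count table. Libraries were made from the hearts of WT mice (6 libraries) and KO mice (6 libraries) of labelled strain C57BL/6 and labelled age 2 months. A library is called a heart below, although no label says that each came from its own animal. The WT mice were Sdhaf4fl/fl without a Cre transgene, so they are wild type by label but not by allele, and the floxed alleles are shared by both groups. The KO mice carried the same alleles with a Cre driven by the muscle creatine kinase promoter (Ckmm-Cre), which is active in cardiac and skeletal muscle, so cells of the heart other than cardiomyocytes keep the floxed gene, and there was no group with Cre and unfloxed alleles. The labels name the KO genotype Sdhaf4-/- and do not name the Cre. The text of the paper gives these hearts a younger age than the labels do. Its reporting summary describes the animals of the molecular and omics work as male, at ages that include about the labelled 2 months.

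Fumarate is an intermediate of the tricarboxylic acid cycle. Succinate dehydrogenase, which is complex II of the respiratory chain, makes it from succinate, and fumarase hydrates it to malate. Several pathways outside the cycle also release fumarate: fumarylacetoacetate hydrolase at the last step of phenylalanine and tyrosine breakdown, adenylosuccinate lyase in the purine nucleotide cycle and in de novo purine synthesis, and argininosuccinate lyase on the way from citrulline to arginine. In muscle the purine nucleotide cycle runs from AMP to IMP by AMP deaminase, from IMP to adenylosuccinate by adenylosuccinate synthase, and back to AMP by the lyase with release of fumarate. The enzymes of tyrosine breakdown and of the urea cycle are best known from liver and kidney.

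Fah, Adssl1 and Ass1 were the members whose log2 fold change passed 1 in either direction with an adjusted p under 0.005, and the RefSeq sequence just before the start of each is shown for that reason. The sequences are from GRCm38.p6, are written 5′ to 3′ on the strand of the gene, and end 1 base before the annotated start. Capitals mark the letters GCGTG, or ACGTG, the core letters of the hypoxia response element, wherever a search of both strands found them in the printed stretch.
Fah, chr7:84605943-84606062, minus strand: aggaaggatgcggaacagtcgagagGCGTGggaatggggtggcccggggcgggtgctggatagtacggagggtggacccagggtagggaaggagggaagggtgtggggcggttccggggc
Adssl1, chr12:112619927-112620046, plus strand: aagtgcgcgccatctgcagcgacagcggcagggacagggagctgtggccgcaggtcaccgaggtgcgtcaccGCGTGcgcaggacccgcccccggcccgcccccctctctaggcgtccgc
Ass1, chr2:31470150-31470269, plus strand: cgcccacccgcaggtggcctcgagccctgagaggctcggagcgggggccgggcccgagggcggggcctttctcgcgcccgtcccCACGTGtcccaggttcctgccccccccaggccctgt
In the Ass1 stretch the capitals hold 2 overlapping matches of ACGTG, 1 on each strand. The printed stretch was 68.3% G and C for Fah, 75.0% for Adssl1 and 78.3% for Ass1. Over the 250 bases before the start the values were 64.4%, 68.4% and 75.6%, against a median of 52.4% over 32851 windows of 27025 genes. GCGTG lay within the 250 bases in Adsl, Adssl1, Ass1, Fah and Fh1, and in 28.2% of all windows. ACGTG lay there in Adssl1, Ass1 and 1 of the Ampd3 windows, and in 16.6% of all windows. CCAAT was found in windows of Ampd3, Fh1 and Gstz1 and in 33.8% of all windows, and CAGCTG, letters of the E-box, was found in 1 window of Gstz1 and in 13.0% of all windows. TATAAA (12.4% of all windows), AAGGTCA (4.08%) and TGATGNAA (3.45%) were in none of the 13 windows of the 9 members in the RefSeq table. These matches are a description of letters and were not tied to the changes of the transcripts.

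The counted reads per library numbered 23747014 to 27159228 for WT and 26542930 to 31393393 for KO. Sdhaf4, the targeted gene, was at 14.3 to 30.3 CPM (counts scaled to sequencing depth, with libraries balanced by the trimmed mean of M values) in the WT hearts and at 2.25 to 2.73 CPM in the KO hearts. The lowest WT value was that of replicate 6, with the other WT hearts at 24.1 to 30.3 CPM. Among the KO hearts, replicates 3 and 6 stood apart. Pairs that held replicate 3 differed by a chi-square per degree of freedom of 29.1 to 52.6 and the other pairs with replicate 6 by 23.9 to 47.9, whereas the KO pairs without either differed by 11.7 to 16.8 and the WT pairs by 7.41 to 22.6. Within WT, pairs with replicate 6 differed by 15.3 to 22.6 and the other pairs by 7.41 to 15.5. Fits without KO replicate 3 or KO replicate 6 are given below where they change a call. The cardiomyocyte markers were abundant in every heart, with summed levels of 52604 to 57404 CPM in WT and 42733 to 58539 CPM in KO. Of the 9 measured, 5 were lower in KO, as were 25.5% of all rows tested.

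All 10 members passed the filter on low counts, and in KO 5 of them fell and 4 rose by edgeR's quasi-likelihood test (adjusted p under 0.05). Fah, Gstz1, Fh1, Adsl and Ampd3 fell, Adssl1, Ass1, Ampd2 and Adss rose, and Asl did not pass. The transcriptome as a whole was widely changed: of the 17155 rows tested, 51.1% passed in either direction, 25.5% as lower and 25.6% as higher. The 6 KO and 6 WT values did not overlap for 7 members and for 30.1% of the rows tested, and 3 members and 10.2% of the rows passed the stricter threshold. The median log2 fold change was -0.09 over the members and 0.00 over the rows tested. Because the members were chosen with earlier results known, these counts only describe them. Because this is RNA of whole tissue, fewer cells of a type and less RNA per cell cannot be told apart.

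**Figure D1:**
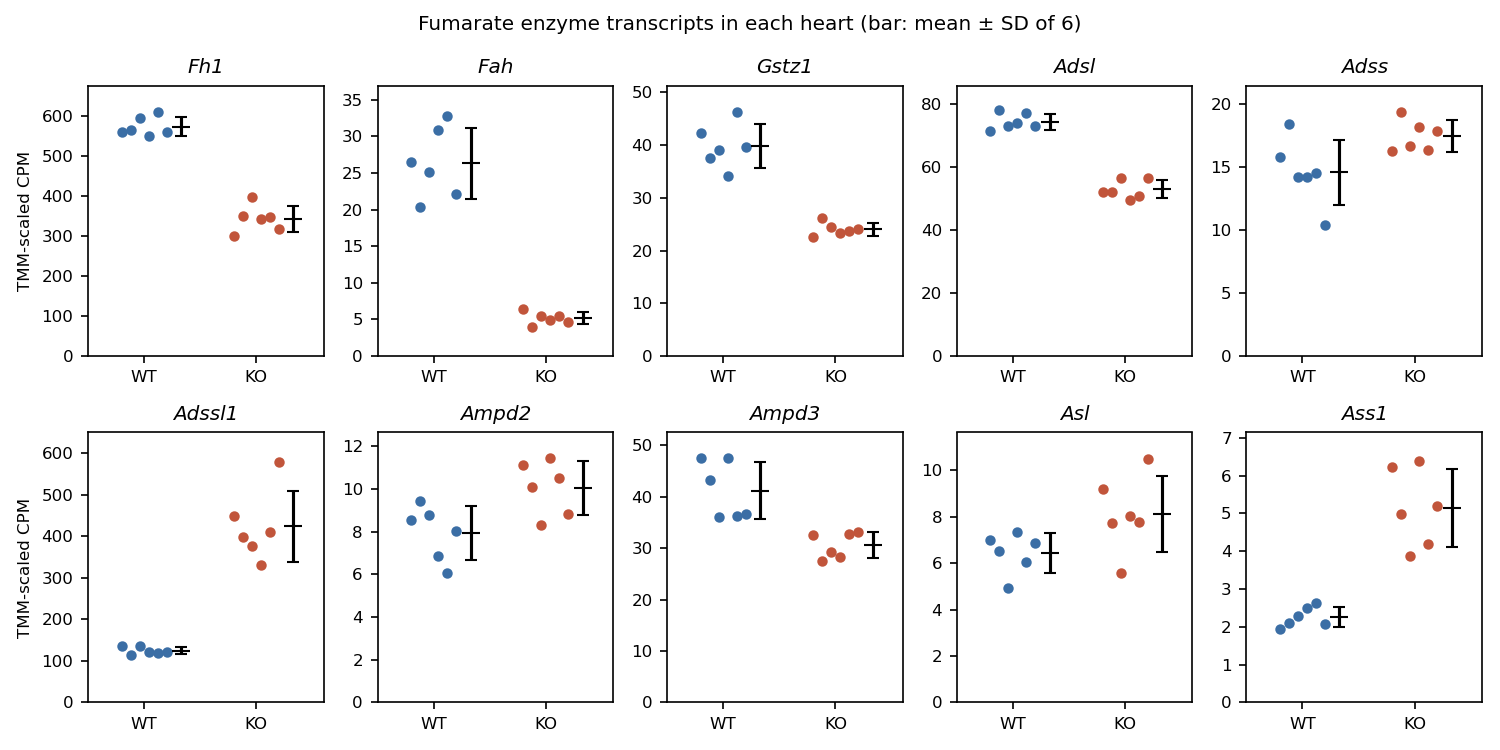
Level of each of the 10 transcripts in CPM (linear axes from 0) in 6 WT and 6 KO hearts; points are hearts and bars the mean ± SD. Fah, Gstz1, Fh1, Adsl and Ampd3 lay lower in every KO heart than in every WT heart, Adssl1 and Ass1 lay higher, and the groups overlapped for Adss, Ampd2 and Asl.

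**Figure D2:**
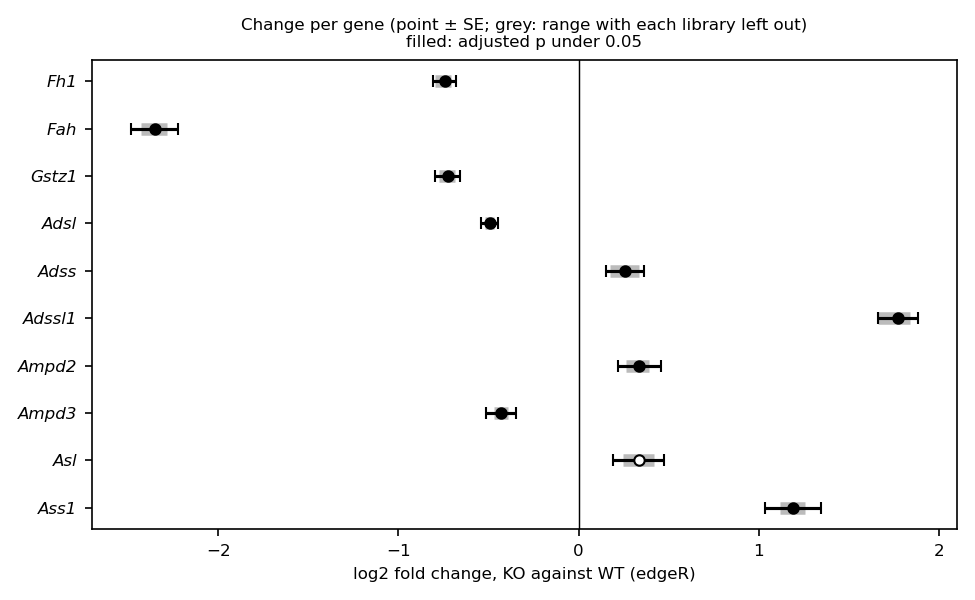
Fitted log2 fold change of KO against WT for each transcript (point ± SE) with, in grey, its range when each of the 12 hearts was left out in turn; filled points passed an adjusted p of 0.05. No range crosses 0, and Fah at -2.35 and Adssl1 at 1.77 lie farthest from it.

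Among the enzymes of tyrosine breakdown, both members fell. Fah (chromosome 7, 90100029 to 90127447, minus strand, C57BL/6NJ coordinates) encodes fumarylacetoacetate hydrolase. Its level was 20.4 CPM in the lowest WT heart, 25.8 at the median and 32.7 in the highest, against 4.01, 5.14 and 6.46 CPM in the KO hearts. The highest KO heart was thus far below the lowest WT heart, and Fah was 5.10-fold lower in KO (log2 fold change -2.35, 95% interval -2.63 to -2.07, adjusted p = 7.13e-10 from edgeR). This change lay at percentile 1.12 of the log2 fold changes of all rows tested. The counts behind it were 565 to 809 reads per WT heart and 107 to 201 per KO heart.

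Gstz1 (chromosome 12, 90573075 to 90589523, plus strand) encodes maleylacetoacetate isomerase, which makes the substrate of the Fah enzyme. It was at 34.1 CPM in the lowest, 39.3 at the median and 46.2 in the highest WT heart, and at 22.6, 23.9 and 26.2 CPM in the KO hearts. The groups did not overlap, but the change was smaller than that of Fah (log2 fold change -0.73, 95% interval -0.87 to -0.58, adjusted p = 1.81e-07 from edgeR), and the 2 intervals did not meet. The span of Gstz1 shares 196 bases with Pomt2 on the opposite strand, which was at 16.7 ± 1.18 CPM in WT and 15.8 ± 0.527 in KO (SD, n = 6; adjusted p = 0.343 from edgeR). Whether the counting used strand is not stated, and reads in shared stretches cannot be assigned.

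The earlier steps of the same pathway were hardly represented in these hearts. Tat (tyrosine aminotransferase), Hpd (hydroxyphenylpyruvate dioxygenase) and Hgd (homogentisate dioxygenase) were not tested for low counts, and the highest value in any heart was 0.0382, 0.162 and 0.216 CPM. The 2 genes of the list that were tested serve the recycling of the tetrahydrobiopterin cofactor, and both fell. Pcbd1 was at 0.614 to 1.78 CPM in WT and 0.130 to 0.675 CPM in KO (log2 fold change -1.63, SE 0.41, adjusted p = 0.00283 from edgeR), with as few as 4 counts in a KO heart. Qdpr, dihydropteridine reductase, was at 67.1 to 76.2 CPM in WT and 55.3 to 67.5 CPM in KO (log2 fold change -0.23, SE 0.06, adjusted p = 0.00325). The groups overlapped for both genes. Markers of hepatocytes, a cell type known for this pathway, summed to at most 0.984 CPM in any heart, with albumin (Alb) at a mean of 0.0265 CPM in WT and 0.0171 in KO.

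Fh1 encodes fumarase, the enzyme that consumes fumarate in the tricarboxylic acid cycle (chromosome 1, 187696137 to 187722344, minus strand). It was at 551 CPM in the lowest, 563 at the median and 610 in the highest WT heart, against 299, 345 and 397 CPM in the KO hearts. The groups were separate, and Fh1 was 1.67-fold lower in KO (log2 fold change -0.74, 95% interval -0.87 to -0.61, adjusted p = 4.47e-08 from edgeR). KO replicate 3 held the highest and KO replicate 1 the lowest KO value, and without replicate 3 the log2 fold change was -0.79. The span shares 5255 bases with Kmo on the opposite strand, which was at 0.903 ± 0.203 CPM in WT and 0.558 ± 0.331 in KO.

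Of 10 other genes tested for succinate oxidation and malate handling, 5 fell, 3 rose and 2 did not pass, with a median log2 fold change of -0.16. The share that passed was 80.0%, against 51.1% of all rows tested. The pathway lists were chosen with earlier results known, so this share and those of the other lists only describe them. Of the 4 complex II subunits, Sdha fell from 1903 to 2030 CPM in WT to 1309 to 1646 in KO, a log2 fold change of -0.46 (SE 0.06, adjusted p = 7.21e-06 from edgeR), Sdhb had -0.43 and Sdhc -0.36, each with no overlap. Sdhd was at 416 to 471 CPM in WT and 403 to 470 in KO (log2 fold change -0.05, 95% interval -0.16 to 0.05, adjusted p = 0.402). The malate dehydrogenases Mdh2 and Mdh1, which oxidise malate, had -0.33 and -0.19, and Mdh1 no longer passed without KO replicate 1 (adjusted p = 0.0564).

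The 3 that rose were malic enzymes, which turn malate into pyruvate, and the dicarboxylate carrier. Me2, the mitochondrial NAD-dependent malic enzyme, was at 8.70 to 10.3 CPM in every WT heart and 20.2 to 24.9 in every KO heart. Its log2 fold change was 1.25 (SE 0.07, adjusted p = 7.13e-10 from edgeR). Slc25a10, the dicarboxylate carrier of the inner mitochondrial membrane, rose from 10.4 to 13.5 CPM to 16.9 to 22.4 CPM (log2 fold change 0.71, SE 0.09). Me1, the cytosolic malic enzyme, had a log2 fold change of 0.24 with overlapping groups, and the carrier Slc25a11 did not pass (-0.13, adjusted p = 0.0639). Slc25a11 did pass without KO replicate 3 (-0.16, adjusted p = 0.0179) and without KO replicate 6 (-0.16, adjusted p = 0.0223).

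The members of the purine nucleotide cycle moved in different directions. Adssl1 (chromosome 12, 118644450 to 118665733, plus strand) encodes the muscle isozyme of adenylosuccinate synthase. It was at 115 CPM in the lowest, 121 at the median and 135 in the highest WT heart, and at 330, 405 and 579 CPM in the KO hearts. No KO heart came near the WT range, and the rise was 3.42-fold (log2 fold change 1.77, 95% interval 1.54 to 2.01, adjusted p = 7.01e-09 from edgeR). KO replicate 6 held the highest value, and without it the log2 fold change was 1.66. The span of Adssl1 overlaps no other row.

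Adss (chromosome 1, 189958024 to 189991514, minus strand), which encodes the isozyme found in most tissues, was at 10.4, 14.4 and 18.4 CPM in the lowest, median and highest WT heart and at 16.3, 17.3 and 19.4 CPM in the KO hearts. The groups overlapped, and the log2 fold change of 0.26 (95% interval 0.04 to 0.48) passed narrowly, with an adjusted p of 0.0478 from edgeR. The call was lost when any heart other than WT replicate 2 or KO replicate 1 was left out, and its adjusted p ran from 0.00917 to 0.102 over 22 alternative settings. Adss had a log2 fold change of 0.27 (adjusted p = 0.0512) without KO replicate 3 and 0.25 (0.0741) without KO replicate 6. Without WT replicate 6, the heart with the lowest value, the log2 fold change was 0.18.

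Compared per length, on the deposited FPKM (fragments scaled by gene length and sequencing depth), the balance of the isozymes shifted towards Adssl1. The ratio of Adssl1 to Adss was 7.52, 10.3 and 13.9 in the lowest, median and highest WT heart and 21.8, 28.8 and 39.0 in the KO hearts, with no overlap. Its mean was 10.5 ± 2.09 in WT and 29.4 ± 6.18 in KO (SD, n = 6). The summed FPKM of both rose from 74.9 ± 4.46 to 241 ± 43.9. These ratios are values per heart and were not tested.

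Adsl (chromosome 15, 84524763 to 84548967, plus strand) encodes adenylosuccinate lyase, the step of the cycle that releases fumarate. It was at 71.3, 73.4 and 77.8 CPM in the lowest, median and highest WT heart and at 49.5, 52.0 and 56.5 CPM in the KO hearts. Each group was tight and they did not overlap, and Adsl was 1.41-fold lower in KO (log2 fold change -0.49, 95% interval -0.59 to -0.39, adjusted p = 2.16e-07 from edgeR). The synthase and the lyase of the same cycle thus moved in opposite directions in these hearts. The span of Adsl shares 395 bases with an unnamed row on the same strand at 2.35 CPM in WT and 2.09 CPM in KO.

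Of the AMP deaminases, which feed the cycle, Ampd3 fell and Ampd2 rose. Ampd3 (chromosome 7, 118998762 to 119046807, plus strand) was at 36.1, 39.9 and 47.6 CPM in the lowest, median and highest WT heart and at 27.4, 30.9 and 33.1 CPM in the KO hearts. The groups did not overlap, although the highest KO heart was close to the lowest WT heart (log2 fold change -0.43, 95% interval -0.61 to -0.25, adjusted p = 0.000364 from edgeR). Its span shares 11972 bases with Rnf141 on the opposite strand, which was as abundant and moved the other way, from 42.7 ± 1.92 to 49.2 ± 3.25 CPM (log2 fold change 0.20, adjusted p = 0.00398).

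Ampd2 (chromosome 3, 113700166 to 113712755, minus strand) was at 6.07, 8.28 and 9.43 CPM in the lowest, median and highest WT heart and at 8.31, 10.3 and 11.4 CPM in the KO hearts. The groups overlapped, and the log2 fold change was 0.34 (95% interval 0.09 to 0.58, adjusted p = 0.0235 from edgeR). It no longer passed without WT replicate 4 or 5 or KO replicate 1 or 4, with an adjusted p of up to 0.0615. Ampd1, the isozyme of skeletal muscle, was at 0 to 0.0846 CPM in every heart and was not tested. Ampd3 made up 83.3% to 89.3% of the summed Ampd FPKM in the WT hearts and 74.8% to 81.8% in the KO hearts, with no overlap (means 86.1% ± 2.28 and 78.5% ± 2.66, SD, n = 6). The summed FPKM itself was 29.1 ± 3.63 in WT and 23.7 ± 1.87 in KO, and its groups overlapped.

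**Figure D3:**
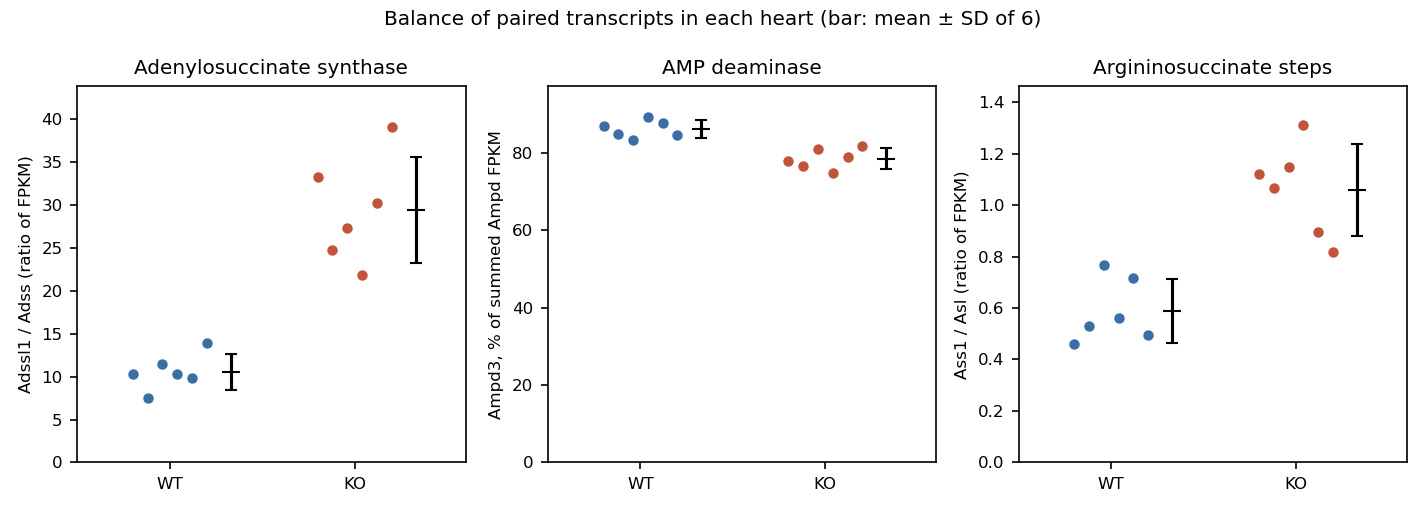
Ratio of Adssl1 to Adss FPKM, Ampd3 as a percent of the summed Ampd FPKM, and ratio of Ass1 to Asl FPKM in each of 6 WT and 6 KO hearts (points; bars are the mean ± SD, axes from 0). In each panel the KO hearts lie apart from the WT hearts, above them at 29.4 against 10.5 and 1.06 against 0.588 on average for the ratios, and below them at 78.5% against 86.1% for Ampd3.

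Of 18 other genes of purine metabolism tested, 9 fell, 6 rose and 3 did not pass, with a median log2 fold change of -0.09. The share that passed was 83.3%, against 51.1% of all rows tested. The falls were in the enzymes that make the activated ribose and build the purine ring (Prps1, Prps2, Gart, Pfas, Paics and Atic), in the guanine branch (Impdh1 and Gmps), and in adenosine kinase (Adk). Gart, which catalyses several steps of ring synthesis, was at 53.8 to 62.4 CPM in WT and 36.5 to 43.1 in KO (log2 fold change -0.49, SE 0.06, adjusted p = 1.18e-06 from edgeR), and Pfas had the lowest log2 fold change of the list at -0.96. Ppat, which encodes the enzyme of the committed step, had a log2 fold change of 0.02 (95% interval -0.14 to 0.18, adjusted p = 0.829). The nucleotidases Nt5c1a (0.04, adjusted p = 0.80) and Nt5c2 (-0.03, adjusted p = 0.757) did not pass either.

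The purine genes that rose were Hprt and Aprt, which salvage free bases, and Ada, Pnp, Nt5e and Xdh, which act in purine breakdown. Ada, adenosine deaminase, went from 0.596 to 1.42 CPM in WT to 2.65 to 4.33 in KO (log2 fold change 1.83, SE 0.21, adjusted p = 1.42e-06 from edgeR). Pnp, purine nucleoside phosphorylase, went from 8.60 to 12.04 CPM to 19.6 to 25.2 CPM (log2 fold change 0.99, SE 0.09, adjusted p = 1.18e-07). Both were higher in every KO heart than in every WT heart. The calls of Adk and Xdh were weak. Adk no longer passed without WT replicate 1 or 5 or KO replicate 1, 2, 4 or 5 (adjusted p up to 0.0853), and Xdh no longer passed without WT replicate 1, 5 or 6 or KO replicate 3, 5 or 6 (up to 0.0911). The log2 fold change of Xdh was 0.35 (adjusted p = 0.0570) without KO replicate 3 and 0.26 (0.0911) without KO replicate 6.

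Of the argininosuccinate steps, the synthase rose and the lyase did not pass. Ass1 (chromosome 2, 30753059 to 30810290, plus strand) encodes argininosuccinate synthase, which joins citrulline and aspartate. It was scarce, at 1.95, 2.19 and 2.63 CPM in the lowest, median and highest WT heart, or 46 to 65 counts, and at 3.87, 5.09 and 6.39 CPM in the KO hearts, or 117 to 194 counts. Every KO heart was above every WT heart, and the rise was 2.28-fold (log2 fold change 1.19, 95% interval 0.86 to 1.52, adjusted p = 6.44e-06 from edgeR). The whole span of Ass1 lies inside that of a row named Golga2 on the same strand. Golga2 was at 129 ± 1.37 CPM in WT and 126 ± 10.4 in KO (log2 fold change -0.04, adjusted p = 0.546 from edgeR). How the counting treated reads in this shared span is not stated, so the Ass1 counts and ratios made from them may depend on it.

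Asl (chromosome 5, 139249936 to 139270042, minus strand), whose enzyme splits argininosuccinate into arginine and fumarate, was at 4.92, 6.69 and 7.35 CPM in the lowest, median and highest WT heart and at 5.56, 7.90 and 10.5 CPM in the KO hearts. The groups overlapped, and the log2 fold change was 0.33 (95% interval 0.04 to 0.63, not adjusted) with an adjusted p of 0.0555 from edgeR. KO replicate 3 held the lowest KO value, below 5 of the 6 WT hearts. Asl passed without that heart (log2 fold change 0.42, adjusted p = 0.00805) and without WT replicate 4 (adjusted p = 0.0495), and had an adjusted p of 0.144 without KO replicate 6. The ratio of Ass1 to Asl FPKM was 0.460 to 0.766 in the WT hearts and 0.817 to 1.31 in the KO hearts (means 0.588 ± 0.124 and 1.06 ± 0.180, SD, n = 6). On CPM the means were 0.356 in WT and 0.642 in KO, so the size of the ratio depends on the gene lengths.

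Of 16 other genes of arginine, urea cycle and nitric oxide metabolism, 10 were tested, and 2 rose, 5 fell and 3 did not pass. The share that passed was 70.0%, against 51.1% of all rows tested. Ddah1, which breaks down asymmetric dimethylarginine, an inhibitor of nitric oxide synthases, was at 1.73 to 3.36 CPM in WT and 10.6 to 25.7 in KO (log2 fold change 2.60, SE 0.22, adjusted p = 2.54e-07 from edgeR). Nos2, the inducible nitric oxide synthase, went the other way, from 7.97 to 15.2 CPM to 3.79 to 6.22 CPM (log2 fold change -1.31, SE 0.15, adjusted p = 1.69e-06), and the endothelial synthase Nos3 did not pass (0.13, adjusted p = 0.301). Nos1, the neuronal synthase, had too few counts to be tested, with 0 to 1 counts per WT heart and 7 to 36 counts (0.262 to 1.17 CPM) per KO heart, so the groups did not overlap. Of the cationic amino acid transporters Slc7a1 fell (-0.92) and Slc7a2 rose (0.67).

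The mitochondrial aspartate and glutamate carriers Slc25a13 and Slc25a12 and the aminotransferase Oat fell. Slc25a13 was at 140 to 165 CPM in WT and 102 to 119 in KO (log2 fold change -0.47, SE 0.05, adjusted p = 1.6e-06 from edgeR), and the other two had log2 fold changes of -0.18 and -0.43. The urea cycle genes Cps1, Otc, Arg1 and Arg2 were near 0 and were not tested. Their highest values in a WT heart were 0.169, 0.121, 0.0405 and 0.162 CPM. Arg1 was at 2.63 CPM, or 73 counts, in KO replicate 6 alone and at most 0.138 CPM in the other KO hearts.

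**Figure D4:**
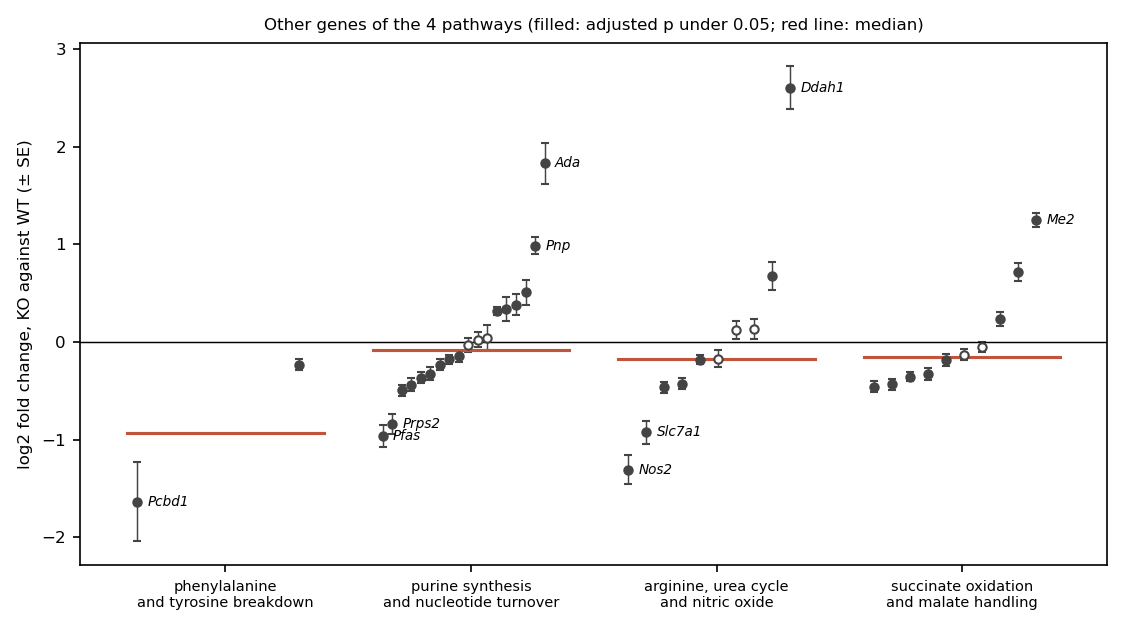
Log2 fold change of KO against WT (± SE) for the other tested genes of 4 pathways, ordered by value within each; filled points passed an adjusted p of 0.05 and the red line is the median of the list. Ddah1 at 2.60 and Ada at 1.83 lie highest and Pcbd1 at -1.63 and Nos2 at -1.31 lowest, while the medians of the 3 longer lists lie between -0.18 and -0.09.

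The members covered a wide range of levels, and their order differed between the genotypes. On the deposited FPKM, the order in WT was Fh1 (545 ± 18.0), Adssl1 (68.2 ± 4.46), Adsl (58.8 ± 2.39), Fah (34.9 ± 5.82), Ampd3 (25.1 ± 3.41), Gstz1 (23.9 ± 2.37), Adss (6.66 ± 1.20), Asl (4.73 ± 0.668), Ampd2 (4.01 ± 0.678) and Ass1 (2.72 ± 0.287), each a mean ± SD of 6 hearts. Fh1, Adssl1 and Adsl were each separate from the next gene in WT, as was Gstz1 from Adss, and the other neighbours overlapped. In the KO hearts Fh1 (326 ± 27.9) and Adssl1 (233 ± 44.0) overlapped, followed by Adsl (41.8 ± 1.25), Ampd3 (18.6 ± 1.54) and Gstz1 (14.4 ± 0.709), each separate from its neighbours. Adss (7.98 ± 0.633), Fah (6.85 ± 1.16), Ass1 (6.25 ± 1.36), Asl (5.97 ± 1.22) and Ampd2 (5.07 ± 0.756) came last, and each overlapped the next. On these FPKM, Fah thus went from the fourth place to the seventh and Ass1 from the last to the eighth.

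This order depends on the gene length behind the FPKM. The deposited values imply a length of 1050 bases for Fh1, 1262 for Adsl and 750 for Fah, whereas the length column of the same table gives 2636, 3712 and 1470, and for Gstz1 both are 1665. With the length column in its place, an alternative added after the data had been seen, Adssl1 came first in the KO hearts (229 ± 43.3) and Fh1 second (130 ± 11.1) with no overlap, and Gstz1 came ahead of Adsl in both genotypes, with overlapping hearts. With that length, Fah went from place 5 in WT to 7 in KO and Ass1 from place 10 to 9. In the KO hearts Ass1 (3.04 ± 0.663) then came behind Asl (3.36 ± 0.686). A comparison between genotypes for a single gene does not depend on the length.

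**Figure D5:**
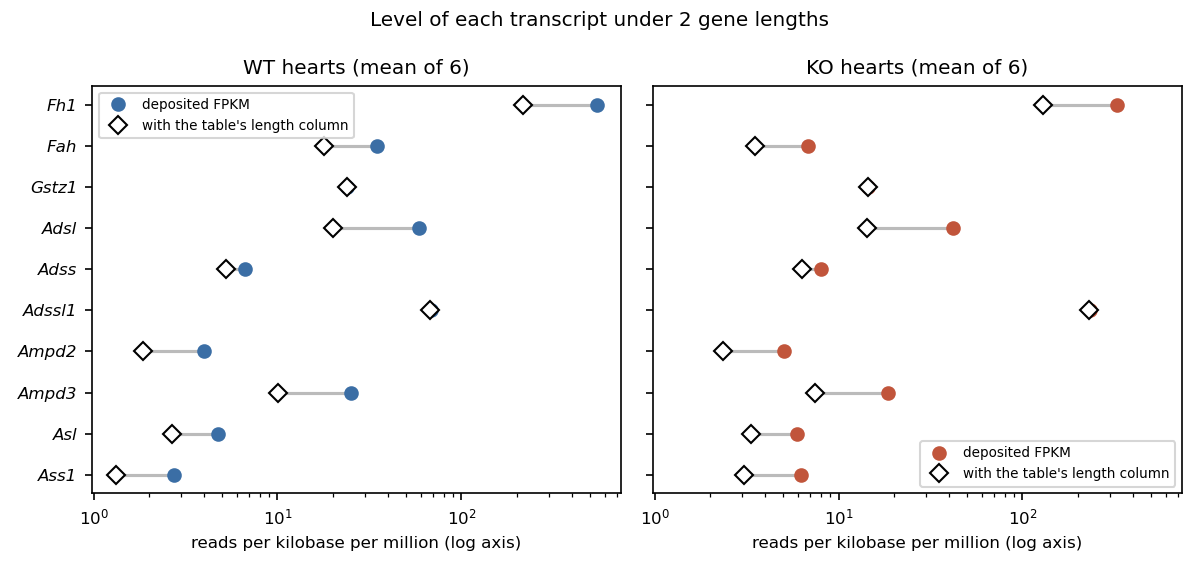
Mean level of each transcript in 6 WT and 6 KO hearts (log axis, reads scaled by gene length and sequencing depth) as deposited FPKM (filled circles) and as recomputed with the length column of the table (open diamonds). Adssl1 lies left of Fh1 in the WT panel under both lengths, but in the KO panel the recomputed value of Adssl1, 229, lies right of that of Fh1, 130.

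Within a genotype the members did not vary as 1 group. Over the 12 hearts, as deviations of log2 CPM from the genotype means, the 45 pairs of members had a Pearson correlation between -0.86 and 0.55 with a median of 0.00. The lowest value was that of Fh1 and Asl (-0.77 within WT, -0.91 within KO, and -0.76 without KO replicate 3), so hearts with more Fh1 had less Asl. The highest was that of Ampd3 and Asl. The 5 named genes with a mean of at least 5 CPM whose deviations were most like those of Fah, among 10249 rows, were Coa4 (0.90), Wdtc1 (0.86), Ankrd9 (0.83), Uhrf1bp1l (0.81) and Mrpl55 (0.80). They were picked as the highest of these rows, so their values are high by choice. Of these, Coa4, Wdtc1 and Mrpl55 were also lower in KO, with log2 fold changes of -0.61, -0.61 and -0.36. Ankrd9 (0.04, adjusted p = 0.724 from edgeR) and Uhrf1bp1l (0.20, adjusted p = 0.0531) did not pass. Of all rows tested, 25.5% were lower. The points of these correlations share library depth and tissue makeup, and no test was made of them.

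Markers of other cell types were measured beside these changes. Their counts stand beside a share of 25.5% lower and 25.6% higher over all rows tested. All 8 fibroblast markers were higher in KO, and their sum was 1420 to 1670 CPM in the WT hearts and 2584 to 4867 CPM in the KO hearts. Endothelial markers summed to 1504 to 1693 CPM in WT and 1557 to 1872 CPM in KO (4 higher and 2 lower of 8), mural markers to 1166 to 1377 and 1172 to 1601 CPM (1 higher and 1 lower of 5), and macrophage markers to 252 to 350 and 250 to 361 CPM (1 higher and 2 lower of 7). None of the 3 erythroid markers tested passed, and they summed to 293 to 1013 CPM in WT and 615 to 1227 CPM in KO. Adipocyte markers summed to at most 1.38 CPM in any heart, and Lep, 1 of them, was at 0 in every WT heart. Markers of skeletal muscle, the tissue known for Ampd1, summed to 2.82 to 14.5 CPM in WT and 1.19 to 5.43 CPM in KO. Of these 8 markers only 3 were tested, and the 2 that passed (Tnni2 and Mylpf) fell. The part of cell makeup in the changes of the 10 enzymes was not tested.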

How the data were processed

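Total RNA of ventricular wall was made into Illumina TruSeq libraries. Per the labels, the submitters' notes name HISAT2 2.0.5 and mm10, and the methods state that HTSeq counted reads per gene. The identifiers and coordinates are those of C57BL/6NJ. The authors deposited 1 table with raw read counts and FPKM per library. Its pooled group means and the authors' own comparison (fold changes, p-values) were not used. Of 43686 rows, 27883 held counts, and 2590 are unannotated loci, which took 9.62% to 12.5% of each library. Counts were fitted in R 4.3.3 with edgeR 4.0.16 (filterByExpr, TMM, robust quasi-likelihood test, Benjamini-Hochberg adjustment over 17155 rows). SEs came from the log2 fold change and the F statistic, and 95% intervals, per gene, used the degrees of freedom of the fit. The fit was also run on simulated counts with far fewer changed rows than here, as many up as down. It recovered most but not all of them, and its acceptance limit was lowered after that was seen. This does not test the scaling under changes as wide as these. Alternatives used DESeq2 1.42.0, limma 3.58.1 (voom, and log2(FPKM + 0.1)), other scalings and filters, a replicate block, and each library left out. Deviations of same-numbered WT and KO libraries correlated at -0.16 to 0.02. This shows no strong pairing by number but cannot exclude a weak one. No pair of replicates agreed within sampling noise. Nothing says whether each library came from its own animal, so p-values measure the spread between these samples. Motifs were searched in RefSeq windows matched by symbol, with no coordinates moved between builds. The members, lists and motifs were chosen with earlier results of these data known. Named pathway genes were those with the 3 smallest p-values per list, partners of members, and any other tested gene of a list; 1 listed gene is not reported here. Some values rest on few counts, and counting precision is limited under 1 CPM.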

Additional observations from a re-analysis of the deposited data

Results flagged for a closer look

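Of 56 groups of 6 hearts checked, 3 held a heart whose gap to the rest passed Dixon's 95% critical value, where chance gives about 1 in 20, or 2.8. Sdhaf4 in KO replicate 1 was at 2.73 CPM, above the other KO hearts at 2.25 to 2.41. Pnp in WT replicate 2 was at 8.60 CPM, below the other WT hearts at 11.1 to 12.04. Nos3 in WT replicate 4 was at 40.7 CPM, below the others at 53.3 to 59.6. None of the 10 enzymes had such a heart.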

How the results depend on the processing

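Under 22 alternatives (other scalings, filters and tests, a replicate block, and each library left out), none of the 10 enzymes or Sdhaf4 reversed. Fah, Gstz1, Fh1, Adsl, Ampd3, Adssl1, Ass1 and Sdhaf4 passed in all 22, Adss in 10, Ampd2 in 18 and Asl in 4. Between 7 and 10 of the members passed, 5 of them lower in each. Beyond the libraries named above, Adss did not pass without robust dispersions (adjusted p = 0.0514) or without unannotated loci (0.0524), and Asl passed with DESeq2 (0.0448). With the replicate block, 4123 rows were higher and 4110 lower, all 10 members passed, and Asl had an adjusted p of 0.0253; 1 of the 6 pairs of numbers correlated best with its own number. On CPM in place of FPKM, Ampd3 made up 83.7% of the summed Ampd level in WT and 75.2% in KO. No scaling moved the median of all rows by more than 0.1. Of the pathway genes, 30 to 33 passed, against 32 in the analysis as reported. Ass1 rests on 46 to 194 counts per library, and genes under 1 CPM rest on fewer.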
